A study of Homo sapiens with 29 samples.

Results

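HnRNPA1 immunoprecipitated from the cytosol of HEK293 cells was compared with normal IgG, and the outcome is a list of 1519 windows of 500 bases in 1326 genes at which the authors called more RNA with the hnRNPA1 antibody. All windows of that cytosolic list were taken, and the gene of a window was read from its name. The whole-cell list holds 13007 windows in 6967 genes and the mitochondrial list 1672 windows in 1169 genes, so the cytosolic windows are 1519 of 16198 in the series. The cells, HEK293, are an established human line of embryonic kidney origin, grown here without treatment. The cytosolic arm has 4 hnRNPA1 and 4 IgG libraries, the whole-cell arm 3 and 3, and the mitochondrial arm 4 and 3. RNA of 4 further samples given hnRNPA1 siRNA and 4 given control siRNA was sequenced without immunoprecipitation, and those control libraries supply the expression levels used here. The lists give 1 value per window and none per library, so the spread between RIP replicates and the depth of the RIP libraries are unknown and no window was tested anew. The labels' protocol describes the RIP RNA as degraded and says that 1 library, which it does not name, was poor.

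HnRNPA1 is an abundant RNA-binding protein of the nucleus that represses or redirects splice sites, binds short motifs such as UAG, and shuttles to the cytoplasm, where it takes part in mRNA export, stability and translation. It also binds some primary microRNAs and helps their processing. RNA immunoprecipitation (RIP) recovers RNA held by a protein directly or through other proteins, and the labels describe no crosslinking step. Small nucleolar RNAs (snoRNAs) guide chemical changes of ribosomal RNA, small Cajal body RNAs guide those of spliceosomal RNA, and most genes of both kinds lie inside introns of other genes. The labels give no method for the fractionation, and a list without levels cannot show how pure the cytosol was. Of 20 genes on a list of long noncoding and other mostly nuclear RNAs, 2 (GOLGA8A and MALAT1) had a cytosolic window and 13 a whole-cell window. These counts leave out a cytosolic window of ENSG00000278144, which lies in the span of NEAT1. Among genes of other nuclear RNAs, 60 of 448 snoRNA genes (13.4%) and 3 of 24 small Cajal body RNA genes (12.5%) had a cytosolic window. Of 1838 genes named like small nuclear RNAs 16 had one (0.871%), against 2.14% of all named genes. Whole-cell windows were listed for 6, 9 and 2 of these genes, in that order. Of 15 protein-coding and ribosomal RNA genes of the mitochondrial genome, 1 had a cytosolic window, 7 a whole-cell window and 11 a mitochondrial window.

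Because microRNA genes are among the RNAs hnRNPA1 is known for, and because their sequences show how small such a gene is beside a window, the mature sequences at the 4 microRNA windows of highest signal are given here. They come from RefSeq on GRCh38.p14, run 5′ to 3′, and have the seed (bases 2 to 8) in capitals. No seed is shared between them. All 23 bases of the first sequence, and all bases of the others, lie inside their window. The window also covers many bases around them and overlaps the span of DDX5 (MIR3064), RPS19 (MIR6797), ZNF717 (MIR4273) or NAA60 (MIR6126). These spans were matched without regard to strand, so such a gene may lie on the opposite strand. The lists do not say which bases of a window the reads covered.
hsa-miR-3064-3p: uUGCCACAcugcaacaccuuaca
hsa-miR-3064-5p: uCUGGCUGuuguggugugcaa
hsa-miR-6797-5p: aGGAGGGAaggggcugagaacagga
hsa-miR-6797-3p: uGCAUGACccuucccuccccac
hsa-miR-4273: gUGUUCUCugauggacag
hsa-miR-6126: gUGAAGGCccggcggaga

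Protein-coding genes made up 55.1% of the genes with a cytosolic window (731 of 1326), against 79.7% of genes in the whole-cell list and 77.0% in the mitochondrial list. Pseudogenes, which are mostly silent copies of other genes, made up 10.9% (144 genes) of the cytosolic list, against 2.99% of the whole-cell and 3.25% of the mitochondrial list. Small RNA genes made up 6.41% (85 genes) of the cytosolic list, against 0.388% (27 genes) of the whole-cell list and 0 genes of the mitochondrial list. Long noncoding genes took 4.83% of the cytosolic, 5.35% of the whole-cell and 4.88% of the mitochondrial list. A further 302 cytosolic genes (22.8%) matched no entry of the RefSeq table by symbol and chromosome, against 11.6% of whole-cell and 14.9% of mitochondrial genes. These are called genes without a RefSeq entry here, although some may stand there under another name, as MT-ND3 does (ND3). The genes of the cytosolic list were also smaller: 130 of the 1024 with a RefSeq span (12.7%) were no longer than 1 window, against 1.10% in the whole-cell list and 0.603% in the mitochondrial list. No replicate value stands behind these shares, so the differences between lists were not tested.

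**Figure D1:**
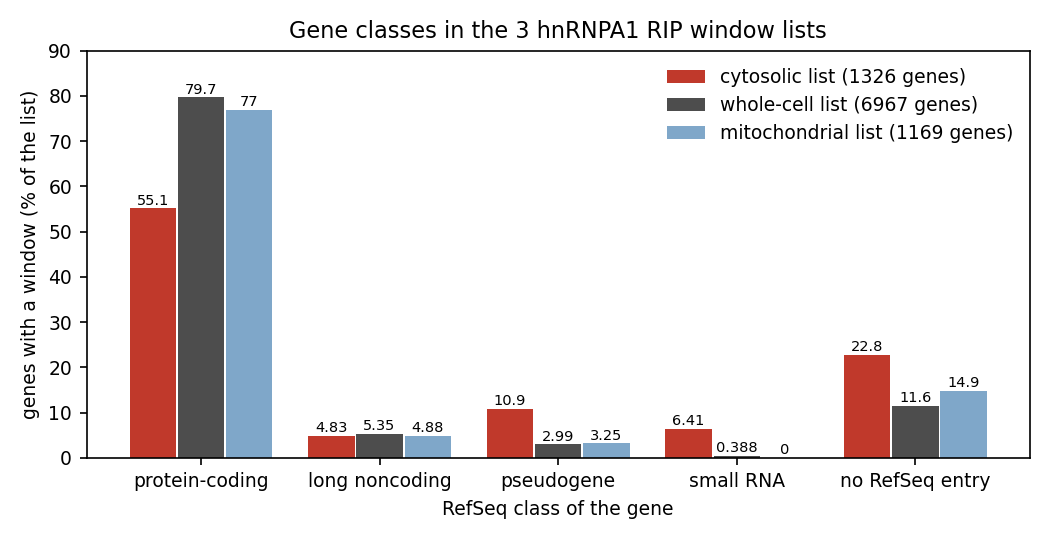
The bars give the percentage of each list's genes that fall in 5 RefSeq classes, for the cytosolic, whole-cell and mitochondrial lists. Pseudogenes, small RNA genes and genes without a RefSeq entry take 10.9%, 6.41% and 22.8% of the cytosolic list, above their share in both other lists.

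The 85 small RNA genes comprised 61 snoRNA genes, 16 microRNA genes, 5 small nuclear RNA (snRNA) genes and 3 other noncoding RNA genes by RefSeq's class. Of 448 genes named as C/D or H/ACA snoRNAs, 60 (13.4%) had a cytosolic window, 6 (1.34%) a whole-cell window and 0 a mitochondrial window. These counts go by the gene a window is named for, and 29 of the 85 small RNA windows (34.1%) overlapped a whole-cell window, which in most cases is named for another gene, against 9.68% of all cytosolic windows. Over all 61228 genes in the name table, some of them named by their ID alone, 2.14% had a cytosolic window, 11.3% a whole-cell window and 1.88% a mitochondrial window. The highest snoRNA signals were those of SNORA32 (2.24), SNORA74B and SNORA62 (1.98 each), SNORA44 (1.94) and SNORA84 (1.91). Of 24 small Cajal body RNA genes, 3 had a cytosolic window, namely SCARNA18B with a signal of 2.54, SCARNA22 with 2.38 and SCARNA17 with 1.09, against 9 with a whole-cell window. Among snRNA genes, RNU5E-1 and RNU5A-1, both copies of the U5 RNA of the spliceosome, had signals of 2.27 and 2.10, and their reads may be split between near-identical copies. A snoRNA window overlapped another RefSeq gene, on either strand, in 59 of 61 cases, so reads of the snoRNA and reads of its neighbour or host cannot be told apart.

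By RefSeq's class, 16 microRNA genes had a cytosolic window, 5 a whole-cell window and none a mitochondrial window. Among 1934 symbols that start like a microRNA, host genes of microRNAs included, 16 (0.827%) were in the cytosolic list. The whole-cell list held 13 (0.672%) and the mitochondrial list 2 (0.103%). Over all named genes the shares were higher, at 2.14%, 11.3% and 1.88%. MIR3064 (chr17:64500775-64501274, minus strand), whose gene lies in the span of the RNA helicase gene DDX5, had the highest signal at 1.99. MIR6797 (chr19:41869628-41870127, plus strand), in the span of the ribosomal protein gene RPS19, had 1.86. MIR4273 (chr3:75738281-75738780, plus strand) had 1.79, MIR6126 (chr16:3485382-3485881, minus strand) 1.73 and MIR3682 (chr2:53849123-53849622, minus strand) 1.69. These 5 microRNA genes had no overlapping window in the whole-cell or mitochondrial list.

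The signal of cytosolic windows ran from 0.70 to 2.90, with a median of 1.22, and the whole-cell list started at the same 0.70 and had the same median of 1.22. The sources used here do not give the unit of the signal. By class the median was 1.17 in protein-coding genes, 1.23 in long noncoding genes, 1.51 in pseudogenes and 1.51 in small RNA genes. The highest value, 2.90, was listed for CHP1P1 (chr5:73020701-73021200, minus strand), a pseudogene in the span of FCHO2, and for GJD2-DT (chr15:34791085-34791584, plus strand), a divergent long noncoding gene. FRMD4A (chr10:14185207-14185706, minus strand), which encodes a scaffold protein of cell polarity, followed with 2.75, and FBXW10, an F-box protein gene, with 2.67. Next were PABPC1P3, a pseudogene copy of the poly(A)-binding protein gene, and ENSG00000271917 with 2.61 each, IGFBP6, which binds insulin-like growth factors, with 2.57, and LINC01123 with 2.54. SCARNA18B, PDCD5P1 and KIAA1328P1, which lie on 3 chromosomes, shared both the signal of 2.54 and the p-value of 5.425e-05.

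Such repeated values were listed mainly outside protein-coding genes. The pair of signal 1.51 and p 0.03176 was listed for 83 cytosolic windows, of which 20 were in pseudogenes, 10 in small RNA genes, 4 in protein-coding genes and 49 in genes without a RefSeq entry. The pair of 1.69 and 0.01476 was listed for 34 windows. In all, 179 cytosolic windows (11.8%) shared signal and p with at least 3 others, each at a p above 0. Of whole-cell windows 3.81% did, but nearly all of these had a p listed as 0. At a p above 0 the whole-cell list had 1 such pair, shared by 4 windows. Within the cytosolic list the share was 40% of pseudogene windows and 29.4% of small RNA windows, but 0.773% of protein-coding windows. Ribosomal protein pseudogenes show it by name: RPL26P35 and RPL22P24 both had 1.77 with p 0.0002888, RPL21P60, RPL15P12 and RPL9P25 all had 1.69, and RPL26P29 and RPL37AP1 both had 1.6. Of 1602 ribosomal protein pseudogenes 27 had a cytosolic window, 13 of these windows shared their value pair with at least 3 others, and reads that match a pseudogene and its parent gene equally well make such genes uncertain.

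**Figure D2:**
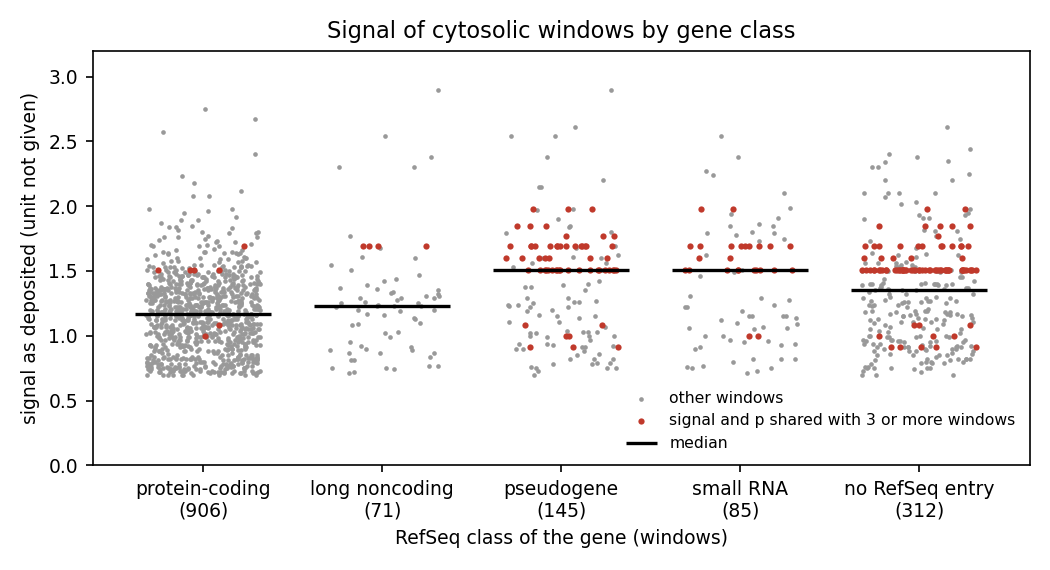
Each point is 1 cytosolic window, placed by the RefSeq class of its gene and by its signal as deposited, with the median of the class as a line. Windows whose signal and p are shared with at least 3 others, in red, form rows such as the one at 1.51, and are 40% of pseudogene windows and 0.773% of protein-coding windows.

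The q-values also differed in kind between the classes. In single-window genes with a p above 0, q was a whole multiple of p in 99.4% of cases, within a relative tolerance of 0.02. Large ratios of q to p meet that tolerance whatever their value, so the share cannot show how q was computed. In 380 cytosolic windows (25%) q equalled p, against 6.93% of whole-cell windows. This held for all 85 small RNA windows and for 73.8% of pseudogene windows, and for 2.32% of protein-coding windows. Where p was above 0, these windows passed the q threshold of 0.05 with no increase over their p. The counts also take in windows whose p and q are both listed as 0. A p of 0 was listed for 12 cytosolic and 772 whole-cell windows, so most of the whole-cell share is of that kind. Without any window whose q equals p, the cytosolic list has 1139 windows in 950 genes, of which 75.1% were protein-coding, 3.89% pseudogenes and none small RNA genes. That set also leaves out windows with a p of 0, such as that of FRMD4A. At a q of at most 0.005, 614 cytosolic windows (40.4%) were left, against 71.5% of whole-cell windows.

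Most cytosolic genes had a single window: 1191 of 1326 (89.8%) had 1, 98 had 2, 23 had 3, 7 had 4 and 7 had 5. In the whole-cell list 44.0% of genes had more than 1 window. Of the 193 pairs of neighbouring cytosolic windows within a gene, 72 (37.3%) touched each other. TMEM242, which encodes an assembly factor of the mitochondrial ATP synthase, had 5 windows within 3000 bases on chromosome 6, with signals of 1.98, 1.43, 1.3, 1.28 and 1.15, and none in the whole-cell list. The window with 1.28 overlapped a mitochondrial window. GNL3L, a nucleolar GTPase gene, had 5 windows in a row over 2500 bases of chromosome X, with signals of 1.45, 1.28, 1.17, 1.11 and 1.05. Its 2 whole-cell windows lay elsewhere in the gene. EIF5B, the GTPase that joins the ribosomal subunits, had 5 windows spread over 39500 bases of chromosome 2, with signals between 0.73 and 1.12, while its 3 whole-cell windows lay in the last of 10 equal parts of the gene. KCTD3, SAMD4B (an RNA-binding translational repressor), HDDC2 (a nucleotidase) and FBRS also had 5 windows each, over 14000, 7000, 5000 and 7500 bases. TM9SF3, USP24, a deubiquitinase gene, and UBR4, a ubiquitin ligase gene, had 4 each.

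TGFB1, the growth factor gene, had 4 cytosolic windows, and 3 of them were matched by windows of CCDC97 on the opposite strand. At chr19:41318088-41318587 on the minus strand TGFB1 had a signal of 1.79, and a CCDC97 window on the plus strand, which overlaps it by 415 bases, had 1.77. The neighbouring pair had 1.48 for TGFB1 and 1.5 for CCDC97. These 3 windows lie beyond the end that RefSeq gives TGFB1 and inside CCDC97. Over the list, 35 pairs of overlapping windows lay on opposite strands, and in 20 of them (57.1%) the 2 signals were within 0.2 of each other, against 33.3% of all pairs of windows in the list. Other examples are TTN with 1.51 and TTN-AS1 with 1.51, and CRTC3 with 0.88 and CRTC3-AS1 with 0.87. The sources used here do not say whether reads were counted by strand, and so the genes of such a pair cannot be told apart. Windows that overlap on the same strand leave 1470 distinct stretches of the 1519 windows, and 1436 if strand is ignored.

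Within protein-coding genes of at least 5000 bases, 844 cytosolic windows were spread almost evenly along the gene. When the span was cut into 10 equal parts, each part held between 7.94% and 12.4% of them, with 9.83% in the first part and 11% in the last, and the median window lay at 0.567 of the span. Whole-cell windows piled up at both ends, with 23.1% in the first and 42.0% in the last part and a median position of 0.809. Mitochondrial windows piled up at the end, with 33.9% in the last part and a median of 0.773. Within 1000 bases of the gene's end lay 4.15% of cytosolic, 20.4% of whole-cell and 20.7% of mitochondrial windows. Within 1000 bases of its start lay 6.16% of cytosolic, 20.7% of whole-cell and 0.872% of mitochondrial windows. Introns fill most of the span of long genes and untranslated exons lie at its ends. The annotation used here gives spans without exons, so the share of windows in introns was not measured.

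**Figure D3:**
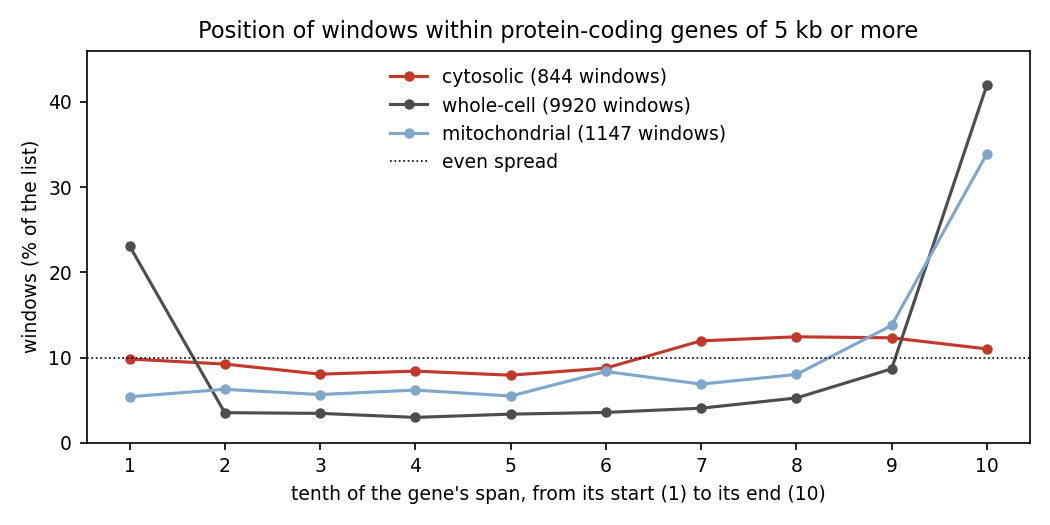
The lines give the percentage of windows in each of 10 equal parts of the span of protein-coding genes of at least 5000 bases, from the start to the end of the gene, for the 3 lists. The cytosolic line stays between 7.94% and 12.4%, while the whole-cell line reaches 42.0% and the mitochondrial line 33.9% in the last part.

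Of the 1519 cytosolic windows, 147 (9.68%) overlapped a whole-cell window on the same strand, and the 142 whole-cell windows concerned were 1.09% of that list. With the mitochondrial list, 58 cytosolic windows (3.82%) and 59 mitochondrial windows (3.53%) overlapped. No overlap with either list was found for 1324 windows (87.2%). By gene the overlap was wider: 504 cytosolic genes (38.0%) had a whole-cell window somewhere, which is 7.23% of the whole-cell genes, 137 (10.3%) had a mitochondrial window, which is 11.7% of those, and 786 (59.3%) had neither. Windows in genes that had no window of their own in another list were 98.8% of small RNA, 93.8% of pseudogene, 59.2% of long noncoding and 32.8% of protein-coding windows. By place, however, 29 of 85 small RNA windows (34.1%) overlapped a whole-cell window, against 9.16% of protein-coding, 6.21% of pseudogene and 2.82% of long noncoding windows. At 98 windows listed with the same bounds in the cytosolic and whole-cell lists, the median signal was 1.04 in the cytosolic and 1.48 in the whole-cell list, and Spearman's rho between the 2 signals was 0.08 across windows. Windows are not independent replicates, and the number and depth of the libraries behind the lists differ.

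All 3 lists shared 10 cytosolic windows. SMARCC2 (chr12:56173860-56174359, minus strand), a core subunit of the SWI/SNF chromatin remodelling complexes, had the highest cytosolic signal among them at 2.08, and ENSG00000258199, listed over the same bases, had 2.07. SNORA52, in the span of RPLP2, had 1.49, SNORA70, in RPL10, had 1.07 and SNORA6, in RPSA, had 0.82. RPSA itself, a ribosomal protein gene of the small subunit, had 1.11 in a window that overlaps that of SNORA6. PHYKPL, an enzyme gene of hydroxylysine breakdown, had 0.84, and ENSG00000278144, which lies in the span of NEAT1, had 0.92. The remaining pair lies on the mitochondrial chromosome: MT-TV (chrM:1603-2102), a transfer RNA gene shorter than the window, which thus runs on into the ribosomal RNA gene behind it, had 1.6, and MT-ND3 (chrM:10060-10559), a subunit gene of complex I, had 0.74. No other cytosolic window lay on that chromosome. On chromosome Y, UTY and the pseudogene PSMA6P1, which overlap on opposite strands, both had a signal of 1.15 and a p of 0.009399. In both q equalled p, and neither gene had a window in another list. The lists do not show whether the reads also match sequence on other chromosomes, so RNA of these genes was not established.

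HNRNPA1 itself had no cytosolic window, but 3 whole-cell and 3 mitochondrial windows. Over all named genes, against which the gene lists are read, 2.14% had a cytosolic, 11.3% a whole-cell and 1.88% a mitochondrial window. Of 33 hnRNP family genes 4 had a cytosolic window (25 whole-cell, 13 mitochondrial): PTBP2, a neuronal splicing repressor, with 0.98, PCBP2, a poly(C)-binding protein gene, with 0.95, SYNCRIP with 0.90 and HNRNPH3 with 0.75. Of 20 genes of SR proteins, which promote splicing, and of factors related to them, 3 had one, against 16 whole-cell. These were CLK3 with 1.51 and SRRM2 with 1.37, both related factors, and SRSF11 with 1.19. Of 26 stress granule and ALS-linked genes 5 had one, led by ATXN2L with 1.42 and TIA1 with 1.13, against 24 whole-cell. None of 24 mRNAs known to be controlled by hnRNPA1 had a cytosolic window, while 13 had a whole-cell one. Ribosomal protein genes had 4 of 51 for the large subunit (RPL27A with 1.31, RPL34 with 1.27, RPL3 with 0.93, RPL23 with 0.77) and 5 of 34 for the small subunit (RPS6 with 1.22, RPSA with 1.11, RPS13 and RPS15A with 1.09, RPS27L with 0.83). Nuclear genes of oxidative phosphorylation had 7 of 76, led by UQCRC2, a complex III core subunit, with 3 windows and a signal of up to 1.72. Zinc finger (ZNF) genes had 20 of 571, against 211 whole-cell, and no olfactory receptor or protocadherin gene had one.

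Among genes of the cytoskeletal motors (kinesins, dyneins and myosins) 8 of 132 had a cytosolic window, 34 a whole-cell and 6 a mitochondrial window. DYNLT1, a dynein light chain gene, had the highest signal of them at 1.75, and KIF14, a mitotic kinesin gene, had 3 windows with up to 1.64. Genes named like translation factors, pseudogenes such as EIF3LP2 and EIF3EP1 included, had 9 of 227 (44 whole-cell). EIF4G3, a scaffold of cap-dependent initiation, at 1.98 and EIF2S2 at 1.45 had the highest signals of them, above EIF5B. Mitochondrial ribosomal protein genes had 3 of 78 (41 whole-cell), which were MRPL33 with 1.21, MRPL14 with 1.15 and MRPL12 with 0.83. Solute carrier genes had 7 of 368, led by SLC17A5 with 1.53, and small GTPase and regulator genes 7 of 177, led by ARHGEF12 with 1.48. Mitosis and spindle genes had 2 of 28, BUB1 with 1.37 and TOP2A with 0.95, against 22 with a whole-cell window. Of 18 glycolytic genes 1, LDHB, had a window (signal 1.19), as did 1 replication-dependent histone gene of 69, H2BC10 (signal 1.45). No gene of 24 in the ATF4 stress response had a cytosolic window, while 15 had a whole-cell window.

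Expression was read from the 4 control siRNA libraries as normalised reads per gene. These levels are not per length, so a long transcript ranks above a short one of equal copy number, and spans of genes could not replace transcript lengths. Marker genes known from HEK293 were present, with all 9 listed above 10 normalised reads, while of 15 markers of other cell types 3 were listed, with a summed level of 57.1 to 75.9 per control library against 18246 to 19681 for the HEK293 markers. Of the 1326 cytosolic genes 825 were listed at all and 788 (59.4%) reached a mean of 10 or more, against 85.8% of whole-cell and 83.3% of mitochondrial genes. The share was 96.2% of protein-coding genes, 45.3% of long noncoding genes, 11.8% of pseudogenes and 7.06% of small RNA genes. A further 37 were listed below 10, and 491 were not listed although their ID falls inside the range the table covers. The windows of these 491 genes had a median signal of 1.5, and q equalled p in 66.0% of them, against a median of 1.16 and 3.40% in genes at 10 or more.

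Listed genes with a cytosolic window had a median level of 750.4 normalised reads, against 789.4 for whole-cell genes, 1252 for mitochondrial genes and 274.7 for all 16382 listed genes. In control libraries 1 to 4 the median of the cytosolic genes was 735.1, 741.3, 733.1 and 744.1. The share of genes with a cytosolic window grew with level, from 3.05% in the lowest of 10 equal groups of listed genes, through 1.65% in the third group, to 11.4% in the highest. For whole-cell windows the same shares were 8.36% and 80.0%. Among the 100 genes of highest level 10 had a cytosolic window and 74 a whole-cell window. The signal of a cytosolic gene's best window hardly followed its level (Spearman's rho 0.02 across 825 genes), and within protein-coding genes it followed the gene's span more closely (rho 0.24 across 711 genes). Genes are not independent replicates, so these are descriptions of 1 list.

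**Figure D4:**
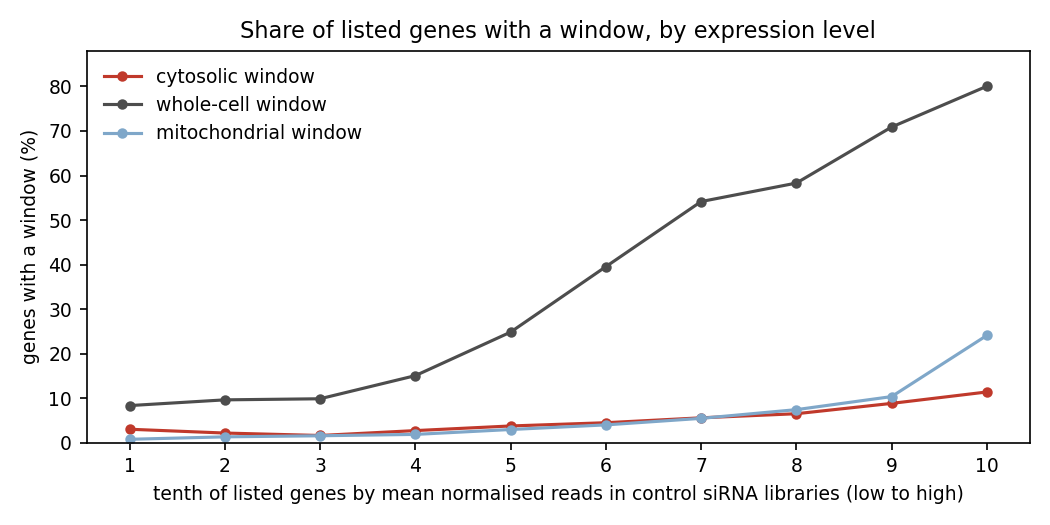
Listed genes are split into 10 equal groups by their mean normalised reads in the 4 control siRNA libraries, low to high, and the lines give the percentage of each group with a cytosolic, whole-cell or mitochondrial window. The cytosolic line ends at 11.4% and the whole-cell line at 80.0% in the highest group.

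The highest levels among cytosolic genes were those of RPL23, with 26709, 24009, 22398 and 25352 normalised reads, and RPS6, with 24173, 22553, 19493 and 20562 (control siRNA libraries 1 to 4). Both encode ribosomal proteins and rank 34 and 43 among listed genes. TOP2A, the mitotic DNA topoisomerase gene, averaged 21673 ± 1012 normalised reads, EEF1G, an elongation factor gene, 21358 ± 2036, and RPS15A 19971 ± 2344 (SD, n = 4 libraries each). HSPD1, a mitochondrial chaperone gene, LDHB, a lactate dehydrogenase gene, PMAIP1, which encodes the apoptosis inducer NOXA, and USP9X, a deubiquitinase gene, followed, between 17675 and 15391 on average. Their best signals were 1.02 for HSPD1, 1.19 for LDHB, 0.95 for PMAIP1 and 1.13 for USP9X, each below the list's median. Among the genes named in this paragraph, PMAIP1, RPL23 and FRMD4A had a best window that also overlapped a whole-cell window. At the other end, FRMD4A, with its signal of 2.75, stood at 123.3 ± 6.83 normalised reads, IGFBP6 at 16.4 ± 1.64 and LINC01123 at 5.89 ± 2.96, while CHP1P1, GJD2-DT, FBXW10 and PABPC1P3 were not listed. Genes with 5 windows had intermediate levels, such as 482.7 ± 26.5 for TMEM242 and 1665 ± 163 for GNL3L.

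Whether genes with a cytosolic window changed when hnRNPA1 was depleted was asked in the siRNA libraries. HNRNPA1 stood at 6506, 6413, 7185 and 5306 normalised reads in hnRNPA1 siRNA libraries 1 to 4, against 18637, 20403, 18614 and 19348 in control siRNA libraries 1 to 4. The groups did not overlap, and 33.0% of the control level was left (log2 fold change -1.61, SE 0.09, limma adjusted p = 2.2e-06). Since the labels do not say whether the 4 libraries of a group are separate cultures, the p-values cover the spread among libraries only, and that spread may be technical. Of 789 cytosolic genes that were tested, 22 (2.79%) passed an adjusted p under 0.05 in limma, against 1.65% of all 15267 genes. Of these, 11 were higher (against 0.675% of all genes) and 11 lower (against 0.976%) in the knockdown. The median log2 fold change was -0.00 over the cytosolic genes and 0.00 over all genes. At an unadjusted p under 0.05 stood 24.7% of cytosolic genes and 19.2% of all genes. Of 326 tested genes with a cytosolic but no whole-cell window 11 passed, as did 11 of 463 with both. Cytosolic genes stood at higher levels than all listed genes. When only genes above the median level were fitted, 26 of 604 cytosolic genes passed (4.30%), against 3.64% of all 8191. The count of 22 fell to 5 (0.635%, against 0.403% of all genes tested) when control library 4 was left out and to 7 (0.894%, against 0.482%) when control library 1 was. Leaving out knockdown library 2 gave 6 (0.762%, against 0.482%) and knockdown library 3 also 6 (0.763%, against 0.456%). Without knockdown library 4 there were 13 (1.65%, against 1.27%), without control library 2 there were 14 (1.78%, against 0.918%), and control library 3 gave 14 too (1.78%, against 1.07%).

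HNRNPH3, a splicing regulator of the hnRNP H family, had the smallest p among them. It stood at 3120, 2368, 3028 and 2547 normalised reads in knockdown libraries 1 to 4 and at 1314, 1242, 1688 and 1518 in controls 1 to 4. All knockdown libraries lay above all control libraries (log2 fold change 0.94, SE 0.11, limma adjusted p = 0.0014). Its cytosolic window (chr10:68338175-68338674, plus strand) lay at 0.585 of the span with a signal of 0.75. OLMALINC, a long noncoding RNA with 2 cytosolic windows, rose to 324.4, 281.9, 296.2 and 225.0 in knockdown libraries, against 137.8, 184.2, 153.8 and 110.7 in control libraries (log2 fold change 0.95, limma adjusted p = 0.0095). NIPSNAP3A fell to 509.8, 473.1, 507.3 and 435.8 in knockdown libraries, against 909.3, 774.6, 717.2 and 793.2 in control libraries (log2 fold change -0.73, limma adjusted p = 0.0021). WASHC4, a subunit of the endosomal WASH complex with 3 cytosolic windows, fell by 0.47 on the log2 scale (limma adjusted p = 0.0091), and MTF2, an accessory subunit of Polycomb complex PRC2, by 0.57 (limma adjusted p = 0.010). These 5 genes passed under every alternative in which they were tested, and the other 17 of the 22 missed the threshold under at least 1.

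SMARCC2, whose window is in all 3 lists, rose to 1469, 1466, 1514 and 1601 normalised reads in knockdown libraries, against 1041, 1258, 1241 and 1126 in control libraries (log2 fold change 0.38, limma adjusted p = 0.031, but 0.107 without control library 4). HUWE1, a ubiquitin ligase gene with 3 cytosolic windows and a signal of up to 1.70, rose to 7147, 6119, 7572 and 7084, against 3811, 5005, 5628 and 4658 in control libraries (log2 fold change 0.56, limma adjusted p = 0.027, but 0.0945 without knockdown library 3). In both genes the groups did not overlap, as in every called gene with a cytosolic window, all picked by p. BECN1, a core gene of autophagy, rose by 0.32 on the log2 scale, and its knockdown libraries lay within 1683 to 1712, against 1295 to 1414 in control libraries (limma adjusted p = 0.028, but 0.0963 without knockdown library 3). RPL34 fell to 5443, 5024, 5115 and 5164 in knockdown libraries, against 7660, 6522, 5971 and 6623 in control libraries (log2 fold change -0.36, limma adjusted p = 0.045, but 0.123 without control library 4). It was the member of the ribosomal protein lists with a cytosolic window that passed, while the median over the 4 large-subunit members was -0.20 and over all 49 tested large-subunit genes -0.17.

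Other risers were TRRAP (log2 fold change 0.56), a scaffold of histone acetyltransferase complexes, EDC3 (0.50), an enhancer of mRNA decapping, KDM5C (0.44), a histone demethylase gene with 2 cytosolic windows, and TNFRSF10B (0.33), a receptor for the death ligand TRAIL. Other genes that fell were CD58 (-0.70), a cell adhesion ligand, TTC32 (-0.61), ITGB3BP (-0.44), a centromere protein gene, PCMTD1 (-0.41), NAA16 (-0.39), a subunit gene of an N-terminal acetyltransferase, IFT57 (-0.37), which acts in cilia, and CDC7 (-0.34), the kinase gene that fires replication origins. The knockdown and control libraries did not overlap in any of these genes, but picking genes by p favours such groups. How often this holds among all tested genes was not counted. In each of these genes the limma adjusted p went over 0.05 without 1 of the libraries. The highest values lay between 0.0836 for TTC32 and 0.14 for TRRAP. Their cytosolic signals ran from 0.71 for IFT57 to 1.89 for KDM5C. Of the 4 hnRNP genes with a cytosolic window, HNRNPH3 passed. None of the tested genes with a cytosolic window passed among SR proteins and related factors (3), stress granule genes (5), oxidative phosphorylation (7) or snoRNA genes (5).

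**Figure D5:**
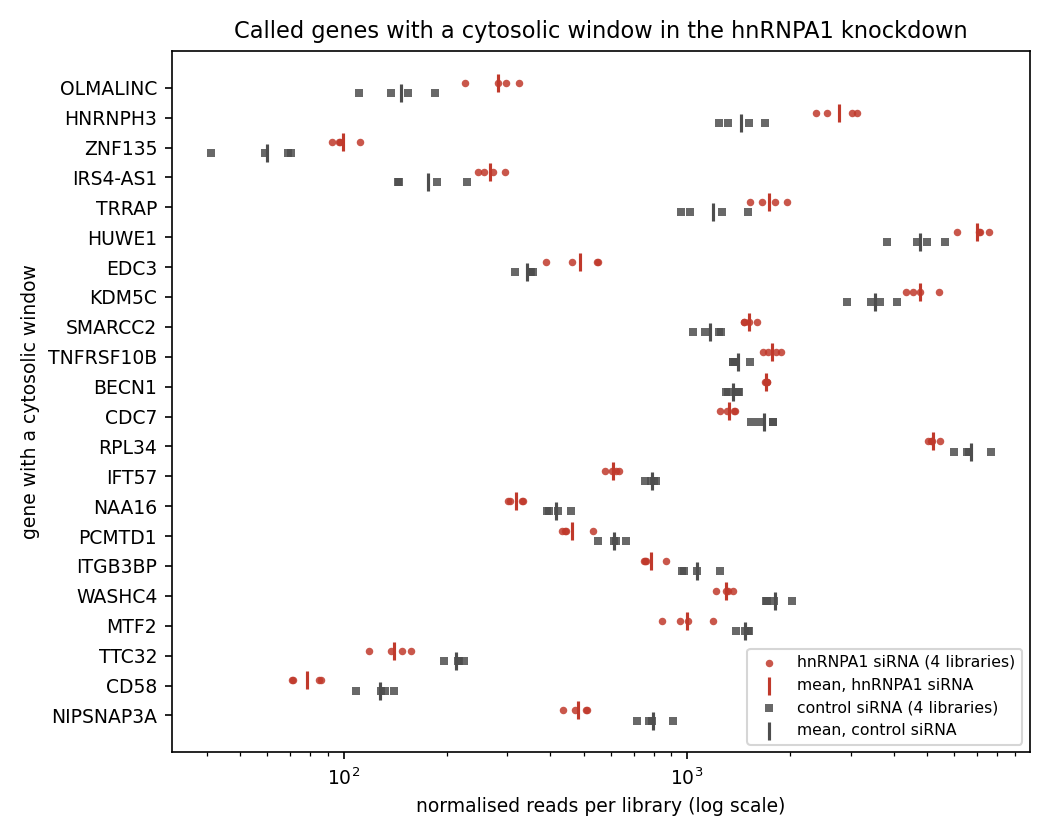
Points are the normalised reads of the 22 called genes with a cytosolic window in 4 hnRNPA1 siRNA libraries (circles) and 4 control siRNA libraries (squares) on a log axis, with bars at the means. The genes are ordered by log2 fold change, from OLMALINC (0.95) at the top to NIPSNAP3A (-0.73) at the bottom. In none do the 2 groups overlap, but picking genes by p favours such groups. The share among all tested genes was not counted.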

How the data were processed

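The authors deposited 1 window list per compartment, with a signal score, a p-value and a q-value per 500-base window. The list's name points to the peak caller CLAM, and the sources used here do not give its version, its settings, the pooling of libraries or the build. Of 1207 cytosolic windows in genes with a RefSeq entry, 1163 (96.4%) overlapped the gene's span on GRCh38.p14. Windows were compared on the same strand with an overlap of at least 1 base. The authors deposited gene values of 8 siRNA libraries as a signal of normalised reads, with 16614386 to 22063723 reads per library estimated from their steps. In each library 82.8% to 84.3% of values were whole multiples of 1 step, so they were not treated as counts. Partek, STAR 2.7.8a, DESeq2 and hg38 are named in the submitters' processing notes, with no role. The table's 16382 gene IDs are sorted and may have been cut off at the end. Of the 1326 cytosolic genes, 284 had no symbol other than their ID, among them 10 that were missing from the name table.

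Because the table holds normalised values, limma 3.58.1 (R 4.3.3) was run with a variance trend on log2(value + 1), with no block for the replicate number, on 15267 genes with at least 10 normalised reads in at least 4 libraries, with Benjamini-Hochberg adjustment over all of them. Fold changes on this scale understate those of low genes. The fit was tested on simulated data. Tables were handled in Python 3.11.15 with pandas 2.3.3 and figures drawn with matplotlib 3.10.9. Genes are named where they hold one of the 10 highest signals, have the most windows or the highest control level, have windows in all 3 lists, passed in the knockdown (the 20 of smallest p), lead a gene list or lie on the mitochondrial chromosome. A gene that this rule names is not reported here. Examples of repeated values, opposite-strand pairs and chromosome Y were picked after their values were seen. Members and lists were chosen with earlier results of these data known. Alternatives were stricter thresholds, other overlaps, other minimum levels, a pseudocount of 0.1, other filters, a replicate block and each library left out. The set without windows whose q equals p was added after seeing the data.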

Additional observations from a re-analysis of the deposited data

Results flagged for a closer look

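In 3 of the 22 called genes with a cytosolic window, 1 library stood apart from the other 3 of its group. ITGB3BP had 866.6 normalised reads in knockdown library 1, against 750.8 to 760.0 in the other knockdown libraries. PCMTD1 had 532.5 in knockdown library 1, against 431.6 to 443.4. TNFRSF10B had 1524 in control library 2, against 1358 to 1375 in the other control libraries. Chance marks about 1 in 20 groups in this way, and 46 groups were examined.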

How the results depend on the processing

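Of the cytosolic list 614 windows had a q of at most 0.005 and 749 lay above its median signal. Protein-coding genes made up 59.0% of genes at q of at most 0.005, 49.1% above the median signal and 75.1% without windows whose q equals p. Pseudogenes made up 13% above the median signal and 3.89% without windows whose q equals p, where small RNA genes made up 0%. The overlap with whole-cell windows was 5.21% above the median signal of each list and 6.85% without windows whose q equals p, and that with mitochondrial windows 2.27% above the median signal. The share of genes at the minimum level was 62.1% at a mean of 1 or more, 62.2% for any listed gene, 51.9% above the median signal, 79.8% without windows whose q equals p and 59.1% to 59.7% with 1 control library left out. The median level was 827.0 above the median signal, 790.8 without windows whose q equals p, 793.8 at a mean of 10 or more and 745.0 to 750.1 with 1 control library left out.

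In the knockdown, the count of 22 genes was 14 above the median signal (7 higher, 7 lower) and 5 to 22 with 1 library left out (2 to 7 higher, 3 to 17 lower). With the replicate number as a block 95 cytosolic genes passed (12.0%; 44 higher, 51 lower), the 22 among them, against 1191 of all genes tested (7.80%). Same-numbered libraries correlated at 0.119, 0.292, 0.0431 and 0.234 in their deviations from the group means, all positive. Libraries of different number ran from -0.251 (control 3 with knockdown 2) to 0.247 (control 3 with knockdown 4), more often negative than positive. The labels do not pair the numbers, so they were not taken as pairs, and these values do not settle whether the libraries were paired. The log2 fold change of HNRNPA1 lay between -1.67 and -1.52 with 1 library left out. A pseudocount of 0.1 and other filters left the count within 1.5 times of 22, and no called gene changed sign. Levels per kilobase were not computed, since only genomic spans were at hand, and DESeq2 size factors were not used, since the values are not counts. The lists hold no replicates, so nothing here measures the error of a window.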
